A study of Homo sapiens with 6 samples.

Results

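The regions bound by the Y537S mutant of estrogen receptor alpha (ERα) were compared with those bound by wild-type (WT) ERα in cells that had received both doxycycline and estradiol (E2). The Y537S list held 109230 regions on chromosomes 1 to 22 and the WT list held 117710. Regions of the 2 lists that overlapped by at least 1 bp were merged, which gave 134854 merged regions, all of which are described here. Merging all 6 lists of the study gave 169433. Both lists come from ChIP-seq, the sequencing of DNA that an anti-ERα antibody pulled down with the receptor, in MDA-MB-453, an established human breast cancer cell line that expresses the androgen receptor and lacks functional ERα of its own. The Y537S cells and the WT cells each carried a doxycycline-inducible receptor. They were grown for 2 days in McCoy's 5A medium with 10% FBS and then for 2 days with 2 µg/mL doxycycline and 1 nM E2. Matching libraries with doxycycline but no added E2, and libraries of cells with K303R ERα, are used here for context. The labels do not say whether each receptor line is a clone or a pool, nor whether the serum was stripped of hormones. Each group is 1 library, so nothing below has a replicate check and no p-value is given, and the receptor cannot be told apart from the cell line that carries it.

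ERα is a nuclear receptor that binds DNA as a dimer. Its best known site, the estrogen response element, is a palindrome of GGTCA and TGACC with 3 bases between them, and it also binds single copies of the half-site, often with other factors such as FOXA1 and AP-2 nearby. Estradiol moves a helix of the ligand-binding domain into a position that recruits coactivators. The Y537S change, from tyrosine to serine in that domain, arises in metastatic breast cancers treated with endocrine therapy and holds the helix in the active position without hormone.

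The number of DNA fragments at the summit of each peak, which the deposited fold and −log10 p-value together determine, was the measure of how strongly a region was recovered. Regions in both lists with a mean of at least 50 summit fragments over the 2 libraries are called well covered here. The ratio of Y537S to WT fragments was divided by its median over these 37129 regions, which was 1.07. A region was called when this centred ratio passed 1.5-fold in either direction and its exact counting interval, with 0.001 outside both ends together, excluded 1. By that rule 2919 regions (7.86%) were higher and 2560 (6.89%) were lower in Y537S. Higher regions were thus 53.3% of those called, and 75.3% when the libraries were scaled by their lowest local background instead of the median region, a choice that shifts every log2 ratio by 0.14. All intervals printed below are 95% intervals and cover counting error only.

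Promoter sequences show one way in which the called regions differed. RefSeq promoter windows (GRCh38.p14, 250 bases before to 50 bases after a gene's start) were searched on 21 of the 22 chromosomes. In 584 well-covered regions the summit lay inside such a window, and 60 of these were higher, 25 lower and 499 not called. Each sequence below is a stretch of 120 bases from the 250 bases before a start, on the gene's strand. The stretches lie at different distances from their starts. The DLX1 stretch, 120 to 1 bases before the start, does not hold the summit, which lies 145 bases before it. They are the 4 protein-coding promoters with the largest increase, followed by 7 lower promoters: the 4 protein-coding ones with the largest decrease, the others of protein-coding genes with a response element, and a noncoding one with an exact element. Elements are therefore more frequent among the lower sequences printed than among all lower promoters, whose share is given further on. Capitals mark an estrogen response element with up to 1 mismatch where there is one. Otherwise they mark GC boxes (GGGCGG on either strand) in a higher promoter, or a half-site (AGGTCA on either strand) where neither is present. SERPINE2 encodes a secreted serine protease inhibitor, DYNLRB2 a dynein light chain, GMIP a GTPase-activating protein and DLX1 a homeobox factor. Their stretches lie at chr2:224038761-224038880 (minus strand), chr16:80540529-80540648 (plus), chr19:19643733-19643852 (minus) and chr2:172085387-172085506 (plus), and none of the 4 promoters held a response element.

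SERPINE2: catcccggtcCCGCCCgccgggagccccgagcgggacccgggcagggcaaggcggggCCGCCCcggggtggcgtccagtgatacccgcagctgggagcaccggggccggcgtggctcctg
DYNLRB2: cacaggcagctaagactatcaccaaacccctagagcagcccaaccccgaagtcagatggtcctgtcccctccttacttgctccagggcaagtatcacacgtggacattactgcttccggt
GMIP: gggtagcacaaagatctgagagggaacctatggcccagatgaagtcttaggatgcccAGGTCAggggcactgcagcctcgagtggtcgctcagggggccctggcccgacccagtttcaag
DLX1: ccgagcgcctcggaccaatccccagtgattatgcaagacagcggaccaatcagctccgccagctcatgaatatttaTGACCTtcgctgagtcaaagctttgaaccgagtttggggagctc

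The lower promoters belong to THSD4, an extracellular matrix protein gene (chr15:71096755-71096874, plus), NECAB3 (chr20:33674559-33674678, minus), DDAH2 (chr6:31729646-31729765, minus), C5AR2, a complement receptor gene (chr19:47336975-47337094, plus), SLC35B2, a sulfate donor transporter gene (chr6:44257659-44257778, minus), MICOS10, a gene of the mitochondrial cristae (chr1:19596780-19596899, plus), and the noncoding LINC02350 (chr12:126425896-126426015, plus). NECAB3 held 2 elements with 1 mismatch each. SLC35B2 and LINC02350 held an element with 0 mismatches.

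THSD4: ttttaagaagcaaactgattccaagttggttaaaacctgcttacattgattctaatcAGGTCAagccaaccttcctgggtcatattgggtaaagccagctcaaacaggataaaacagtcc
NECAB3: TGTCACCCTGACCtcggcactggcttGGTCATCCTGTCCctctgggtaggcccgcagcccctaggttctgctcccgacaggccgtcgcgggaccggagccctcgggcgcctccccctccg
DDAH2: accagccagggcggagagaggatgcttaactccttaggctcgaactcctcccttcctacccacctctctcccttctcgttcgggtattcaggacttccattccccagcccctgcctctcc
C5AR2: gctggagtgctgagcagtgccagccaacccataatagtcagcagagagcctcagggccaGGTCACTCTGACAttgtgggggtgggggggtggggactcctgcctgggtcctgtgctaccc
SLC35B2: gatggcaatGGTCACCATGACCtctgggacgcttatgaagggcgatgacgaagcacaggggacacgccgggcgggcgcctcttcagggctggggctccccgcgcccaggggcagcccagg
MICOS10: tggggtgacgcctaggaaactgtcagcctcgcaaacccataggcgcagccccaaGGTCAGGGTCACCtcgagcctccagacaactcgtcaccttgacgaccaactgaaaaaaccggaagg
LINC02350: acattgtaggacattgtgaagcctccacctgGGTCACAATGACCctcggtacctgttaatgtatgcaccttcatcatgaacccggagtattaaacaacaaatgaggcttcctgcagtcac

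At these promoters the fragment numbers were as follows. The SERPINE2 region had 137 summit fragments in Y537S cells and 34 in WT cells, a ratio of 3.77 (2.57 to 5.66). The GMIP region had 135 in Y537S cells and 46 in WT cells, a ratio of 2.75 (1.95 to 3.93). In the other direction, the THSD4 region had 54 fragments in Y537S cells against 203 in WT cells, a ratio of 0.249 (0.181 to 0.338). Without E2 the THSD4 region had 47 fragments in Y537S cells and 201 in WT cells, so the Y537S libraries were low in both treatments. The NECAB3 region, which also lies 820 bp from the cell cycle factor gene E2F1, had 56 fragments in Y537S cells and 124 in WT cells, a ratio of 0.423 (0.303 to 0.584). For SLC35B2 the numbers were 71 in Y537S cells and 116 in WT cells, and the ratio was 0.573 (0.420 to 0.776). MICOS10, shown for its element, had the smallest decrease of the lower promoters, with 184 fragments in Y537S cells and 259 in WT cells and a ratio of 0.665 (0.547 to 0.806).

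Over all promoter windows that held a summit, the response element was more frequent among the lower regions than among the higher ones. An element with up to 1 mismatch was present in 2 of 60 higher regions (3.33%, Wilson interval 0.919% to 11.4%), in 10 of 25 lower regions (40.0%, 23.4% to 59.3%) and in 34 of 499 regions not called (6.81%, 4.92% to 9.37%). The share in all 33725 promoter windows was 0.839%. In all 10 lower regions the element lay within 50 bases of the summit. The 46 regions with an element had a median log2 ratio of −0.28, and 33 of them were below 0. The other 538 regions had a median of 0.10. Centred within 5 Mb windows instead, the medians were −0.31 with an element and 0.08 without, and in the libraries without E2 they were −0.23 and 0.05. Regions with an element were also stronger, with a median mean of 120 fragments against 92 without. GC boxes ran the other way, being present in 45 of 60 higher regions (75.0%, 62.8% to 84.2%), 8 of 25 lower regions (32.0%, 17.2% to 51.6%) and 53.1% of regions not called, against 45.0% of all windows. Within 50 bases of the summit the GC box shares were closer, at 33.3% of higher, 20% of lower and 25.5% of regions not called. The G+C content of the windows had a median of 68.5% in the higher regions, 56.7% in the lower regions and 63.3% in those not called. The half-site, which on either strand overlaps the full element in part, was in 30% of higher (19.9% to 42.5%), 52.0% of lower (33.5% to 70.0%) and 37.3% of other regions, against 13.8% of all windows. AP-2 motifs (GCCNNNGGC) were in 45.0% of higher and 24.0% of lower regions, and AP-1 motifs (TGANTCA) in 8.33% of higher and 20% of lower regions, and for these 3 motifs the intervals of higher and lower regions overlap. A motif match is a description of the letters and not evidence of binding, and these windows hold few of the called regions.

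**Figure D1:**
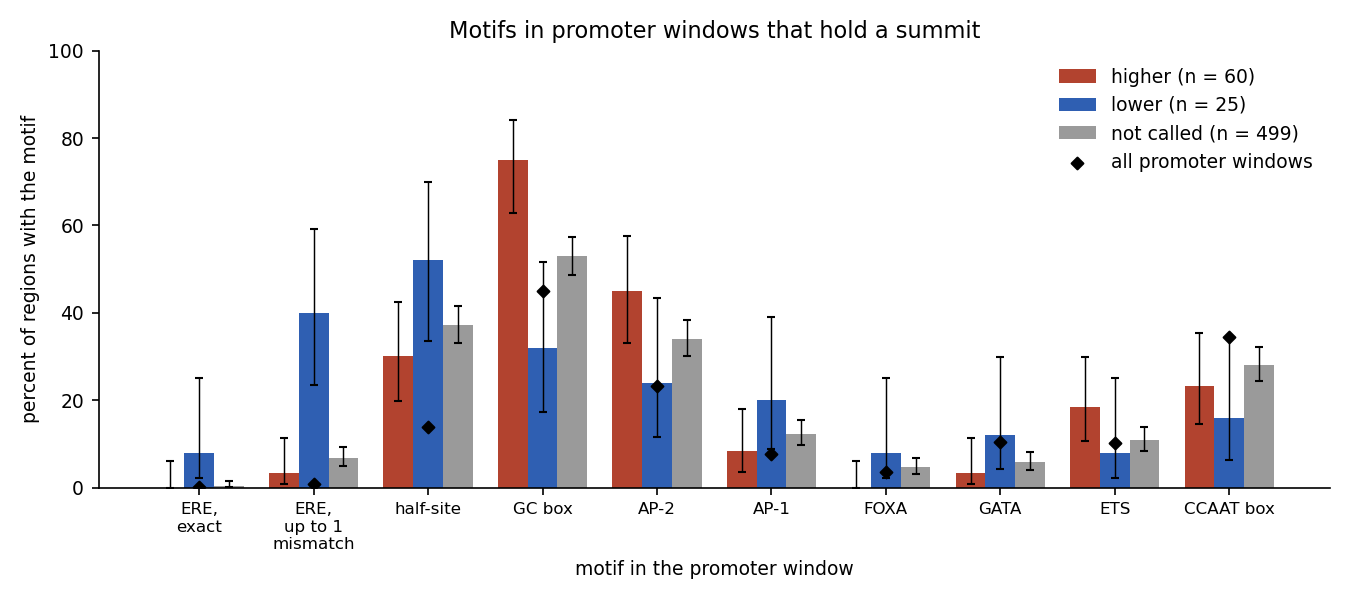
Percent of well-covered regions with a summit in a RefSeq promoter window whose window holds each motif on either strand, for regions higher in Y537S (n = 60), lower (n = 25) and not called (n = 499). Bars carry 95% Wilson intervals and diamonds give the share of all 33725 windows. The response element (ERE) with up to 1 mismatch stands at 3.33% of higher and 40.0% of lower regions, and GC boxes at 75.0% and 32.0%.

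Most bound regions were shared. Of the 134854 merged regions, 90502 (67.1%) were in both lists, 17994 (13.3%) in the Y537S list only and 26358 (19.5%) in the WT list only. Put per list, 83.5% of Y537S peaks and 77.6% of WT peaks lay in a shared region. The Y537S peaks covered 48.7 Mb with a median width of 412 bp, and the WT peaks covered 51.2 Mb with a median width of 402 bp. Summits held a median of 30 fragments in the Y537S list (6 to 409) and 27 in the WT list (6 to 423). The lowest local background was 1.12 fragments in the Y537S list and 1.155 in the WT list. Total read numbers were not used here. The names of the peaks hold a tag that looks like a date. It differs between the Y537S lists and the WT and K303R lists. Where Y537S is set beside WT or K303R, whatever the tag marks therefore cannot be told apart from the receptor.

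Regions in a single list were weak. They held a median of 13 summit fragments in each class, against 46 for shared regions. Only 35 Y537S-only and 18 WT-only regions reached 100 fragments. By −log10 p, none of the 10000 strongest regions of the Y537S list was missing from the WT list (upper Wilson limit 0.0384%). The same held for the 10000 strongest WT regions. When the 10000 were ranked by fold, 8 Y537S regions and 4 WT regions were missing from the other list. Many of the single-list regions were found again in the lists without E2. Of the Y537S-only regions, 55.4% overlapped a peak of the Y537S library without E2 and 34.7% one of the WT library without E2. Of the WT-only regions, 28.9% overlapped a peak of the Y537S library without E2 and 59.3% one of the WT library without E2.

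The regions of a single list with the highest −log10 p, 5 for each list, are described next. A region 30528 bp from WNT7B, a Wnt ligand gene (chr22:46007290-46007961), had 146 fragments in Y537S cells and no WT peak with E2. Without E2 it had 136 fragments in Y537S cells and 31 in WT cells, so a WT peak was called there in the library without E2. Near CLASP1, which encodes a microtubule plus-end protein, 75 fragments were found in Y537S cells with E2, and without E2 there were 49 in Y537S cells and 10 in WT cells. Regions in MTA1, a chromatin remodelling subunit gene (92 fragments), near DHRS3, a retinaldehyde reductase gene (106), and 46774 bp from SNX18, a sorting nexin gene (59), were also in the Y537S list only. In the WT list only, the region with the highest −log10 p lay 567551 bp from TBC1D32 with 97 fragments in WT cells. Without E2 it had 16 fragments in Y537S cells and 104 in WT cells. A region in EVL, which encodes an actin regulator, had 103 fragments in WT cells and a Y537S peak in neither treatment, while K303R cells with E2 had 100. The other WT-only regions of this set lay 410085 bp from PLXNA2 (75 fragments in WT cells), in VAX2, a homeobox gene (79), and in DPP6 (60). A region missing from a list had no peak past the authors' threshold, which does not show that no receptor was bound there.

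The regions with the highest −log10 p of each list differed little between the receptors. A region in ARMC7 (chr17:75114100-75114778) had 409 fragments in Y537S cells and 369 in WT cells, a ratio of 1.04 (0.899 to 1.20). One near AXIN2, a negative regulator of Wnt signalling, had 391 in Y537S cells and 374 in WT cells, with a ratio of 0.978 (0.847 to 1.13). The region 81143 bp from RGS9, among the 5 highest by −log10 p in both lists, had 395 in Y537S cells and 413 in WT cells, with a ratio of 0.895 (0.778 to 1.03). A pair of regions 86030 and 64884 bp from CCND1, the cyclin D1 gene and an ERα target, had 343 and 341 fragments in Y537S cells, against 381 and 378 in WT cells. Their ratios were 0.842 (0.726 to 0.977) and 0.844 (0.727 to 0.980). Those of SHANK2, CD300LD, RD3 and PPFIA4 were 1.04, 0.881, 0.857 and 0.881. None of these regions was called. The highest summit of each of the 6 lists held between 403 and 441 fragments, so these regions lie near the top of the range. Whether fragment counts level off there was not tested, here or for the strongest bin below.

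**Figure D2:**
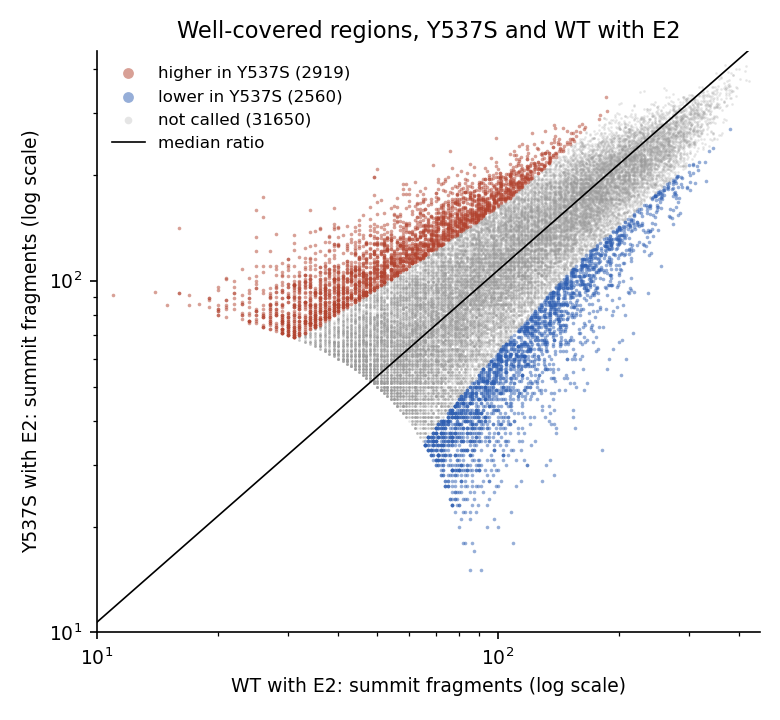
Summit fragments of each of the 37129 well-covered regions in Y537S cells (vertical axis, log scale) and in WT cells (horizontal axis, log scale), both with E2. Red points are the 2919 regions called higher and blue points the 2560 called lower; the line is the median ratio of 1.07, and the curved lower left edge is the minimum mean of 50 fragments. Toward the upper right, where both libraries have the most fragments, few points are coloured.

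Differences were spread over both directions and were mostly moderate. Of the well-covered regions, 93.0% lay within 2-fold of the median ratio. The SD of the log2 ratio was 0.54, against 0.22 for counting error alone. Higher regions had a median of 121 fragments in Y537S cells and 55 in WT cells, and lower regions had 58 in Y537S cells and 112 in WT cells. When the regions were cut into 5 bins by mean fragments, the strongest bin (a mean of 164 to 412.5) had 1.79% higher and 3.01% lower, with a median log2 ratio of −0.08. In the weakest bin (a mean of 50 to 64) 7.93% were higher and 8.72% lower. A region with under 25 fragments in either library could pass the minimum only by at least a 3-fold difference; 100 of the 37129 regions were of this kind and all 100 were called. The local background of a peak moved with the ratio at its summit. Across regions the 2 log2 ratios had a Pearson correlation of 0.88. The median log2 background ratio was 0.87 in higher regions and −0.77 in lower ones, and the part of the local background in the result was not tested. The control library was not given, so the local background may hold the peak's own fragments and may not be a separate measure. The same limit holds for the background ratios by distance and by chromosome below.

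The 12 largest increases near protein-coding genes were led by a region inside PLXNB2, which encodes the semaphorin receptor plexin B2. This region (chr22:50281604-50282328) had 173 fragments in Y537S cells and 26 in WT cells, a ratio of 6.23 (4.11 to 9.80). Without E2 it had 146 in Y537S cells and 24 in WT cells, and in K303R cells with E2 it had 57. Among transcription factor genes, a ZNF385D region (chr3:22240372-22240913) had 159 fragments in Y537S cells and 25 in WT cells, and a BCL11B region (chr14:99194587-99195384) had 133 in Y537S cells and 25 in WT cells. Their ratios were 5.95 (3.89 to 9.47) and 4.98 (3.23 to 7.97). Among genes of the nervous system, ASTN2 and ASTN1, which encode astrotactins of neuronal migration, had 85 and 101 fragments in Y537S cells, against 15 and 21 in WT cells. CELF4, an RNA-binding protein gene, had 92 in Y537S cells and 16 in WT cells. CSMD1, a complement regulator gene, had 136 in Y537S cells and 28 in WT cells. The kinase gene NEK6 had 85 in Y537S cells and 17 in WT cells, and TBC1D9 had 121 in Y537S cells and 25 in WT cells. TTC7B had 91 in Y537S cells and 17 in WT cells. A region in the TMEM276-ZFTRAF1 locus had 93 in Y537S cells and 14 in WT cells. Ratios of the regions given ran between 4.50 (ASTN1) and 6.23 (PLXNB2).

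The 12 largest decreases included a region near the gene of the HER2 receptor. This region, inside PGAP3 and 897 bp from ERBB2 (chr17:39686972-39687586), had 31 fragments in Y537S cells and 135 in WT cells, a ratio of 0.215 (0.141 to 0.319). In the libraries without E2 it had 31 in Y537S cells and 118 in WT cells, and K303R cells with E2 had 166. A region in INPP4B, a lipid phosphatase gene of the PI3K pathway (chr4:142706259-142706836), had 27 in Y537S cells and 129 in WT cells, a ratio of 0.196 (0.124 to 0.298). The largest decrease lay in ADAMTS2, a procollagen peptidase gene (chr5:179275687-179276848), with 15 fragments in Y537S cells and 91 in WT cells and a ratio of 0.154 (0.0829 to 0.268). GALNT2, a gene of mucin-type glycosylation, had 18 in Y537S cells and 109 in WT cells. For the receptor phosphatase gene PTPRK the numbers were 15 in Y537S cells and 85 in WT cells. DAB1, a reelin pathway adaptor gene, had 28 in Y537S cells and 138 in WT cells, but K303R cells with E2 had 36. SLCO3A1, an organic anion transporter gene, had 20 in Y537S cells and 94 in WT cells. CST9 had 30 in Y537S cells and 132 in WT cells, and SV2B, a synaptic vesicle protein gene, had 27 in Y537S cells and 114 in WT cells. ALDH1A2, which encodes a retinoic acid synthesis enzyme, had 23 in Y537S cells and 94 in WT cells. CLPX, a mitochondrial protease subunit gene, had 22 in Y537S cells and 88 in WT cells. TASP1 had 24 in Y537S cells and 95 in WT cells, and without E2 it had 24 in Y537S cells and 35 in WT cells. Both sets were chosen for their ratio of Y537S to WT with E2, so those values are not independent of the choice. The values without E2 and those of K303R cells come from libraries not used in it.

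**Figure D3:**
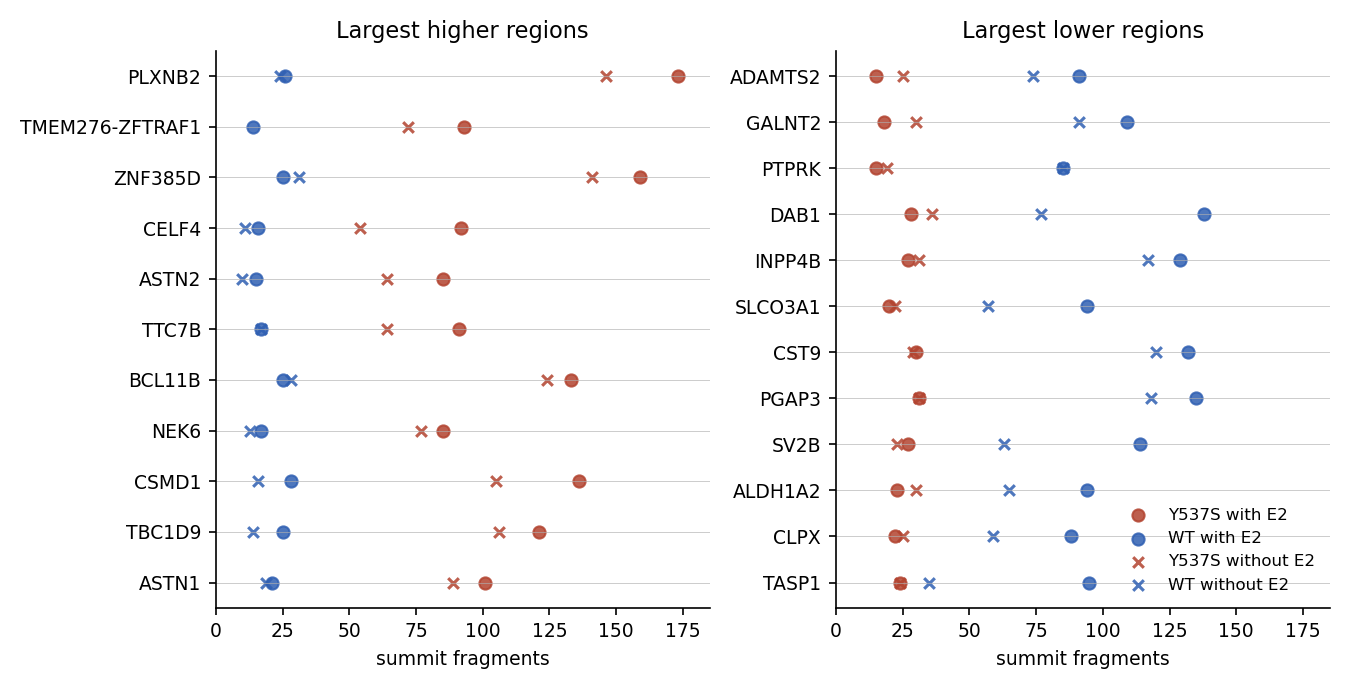
Summit fragments at the named regions among the 12 largest higher (left) and 12 largest lower (right) near protein-coding genes, 1 region per gene. Each point is 1 library, from Y537S cells with E2 (red circles), WT cells with E2 (blue circles), Y537S cells without E2 (red crosses) or WT cells without E2 (blue crosses). At PLXNB2 the Y537S libraries hold 173 and 146 fragments and the WT libraries 26 and 24.

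The same contrast without E2 uses other libraries of the same 2 lines. Of the 36830 well-covered regions that also had both values without E2, 9.79% were higher and 7.33% lower in Y537S there. Regions called higher with E2 were above the median ratio without E2 in 97.2% of cases, and those called lower were below it in 97.4%. Of the higher regions 56.7% were also called higher without E2, and of the lower regions 53.3% were also called lower. The log2 ratios of the 2 treatments had a Pearson correlation of 0.74 across regions, which share lines, peak-name tags and local sequence.

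Regions near gene starts tended towards higher Y537S signal than the median region and distant ones towards lower. Chromosome 8 was not used here for distances or promoter windows. Within 1 kb of a start, the median log2 ratio of 2322 regions was 0.15, with 12.7% higher and 4.31% lower. At 1 to 5 kb it was 0.07 and at 5 to 25 kb 0.01. At 25 to 100 kb it was −0.02, and over 100 kb from any start the 5376 regions had a median of −0.10, with 5.34% higher and 9.88% lower. Seen from the called regions, 10.7% of higher regions lay within 1 kb of a start (9.61% to 11.9%), against 4.09% of lower regions (3.37% to 4.95%) and 6.42% of those not called (6.14% to 6.70%). A summit lay inside a protein-coding gene for 64.6% of higher, 42.9% of lower and 52.8% of other regions. The order held without chromosomes 6 and 19 (0.17 near starts, −0.08 over 100 kb) and within 5 Mb windows (0.12 and −0.05). Scaled by the lowest background of each library, the whole set moved up by 0.14 and the medians were 0.29 near starts and 0.05 over 100 kb. The local background followed the same order, with a median log2 ratio of 0.22 near starts and −0.09 over 100 kb, and its part in the result was not tested.

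**Figure D4:**
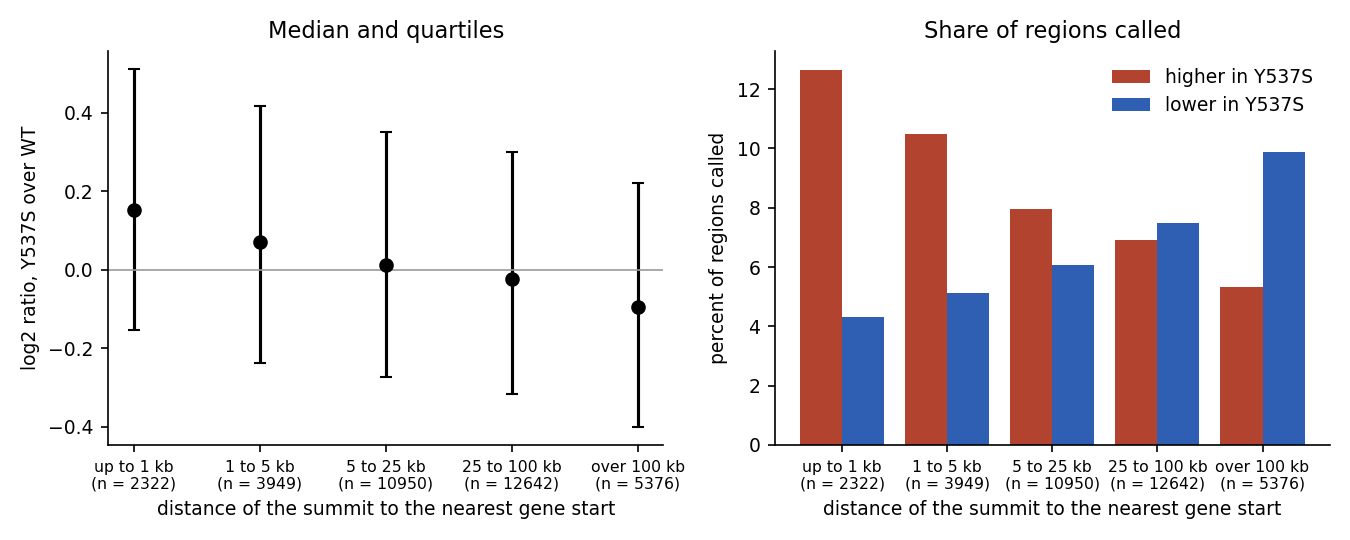
Centred log2 ratio of Y537S over WT (left, median and quartiles) and percent of regions called (right, red higher and blue lower in Y537S) by distance of the summit to the nearest RefSeq gene start, chromosome 8 not used. The median goes through 0.15, 0.07, 0.01, −0.02 and −0.10 with growing distance, and the last is 0.05 when scaled by the lowest background.

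Some chromosomes stood apart as a whole. On chromosome 6 the median log2 ratio was −0.34, with 29 regions higher and 373 lower of 1858. On chromosome 19 it was 0.33, with 189 higher and 27 lower of 888. Chromosome 15 had a median of −0.17, and chromosome 14 of 0.10. For K303R over the same WT library with E2, the medians were −0.11 on chromosome 6, 0.39 on chromosome 19 and −0.22 on chromosome 15. For Y537S over WT with E2, the medians of the other 18 chromosomes lay between −0.04 and 0.06. The libraries without E2 gave −0.35 for chromosome 6 and 0.28 for chromosome 19, and the local background had median log2 ratios of −0.34 and 0.44 there. Whether the lines differ in copies of these chromosomes was not tested.

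**Figure D5:**
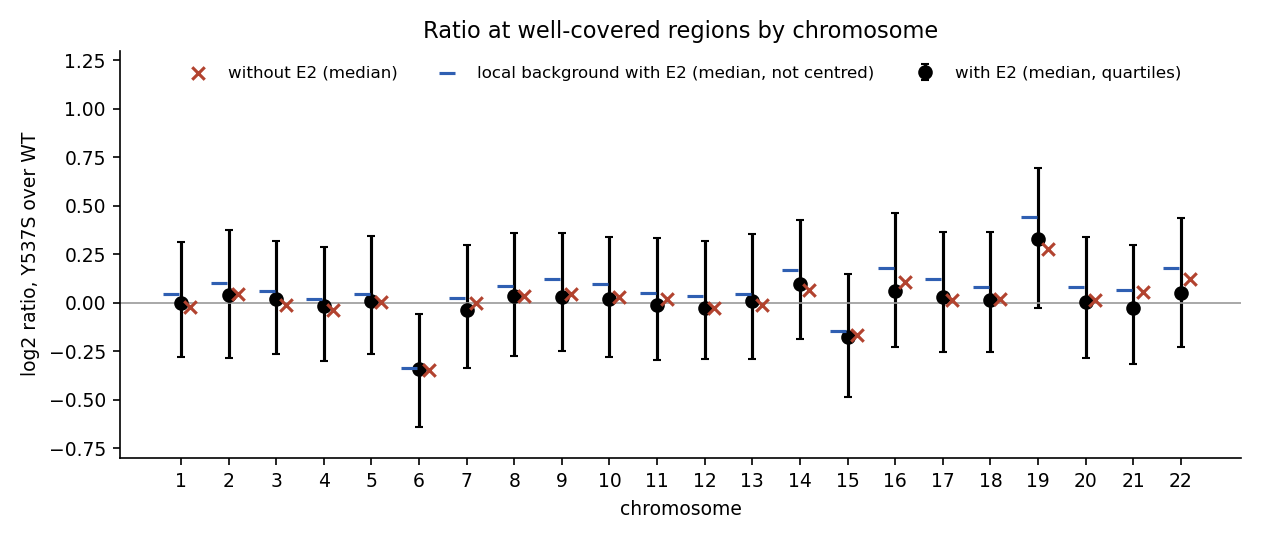
Log2 ratio of Y537S over WT at well-covered regions by chromosome, as median and quartiles with E2 (black), median without E2 (red crosses) and median of the local background ratio with E2, not centred (blue dashes). Chromosome 6 lies at −0.34 and chromosome 19 at 0.33 with E2.

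Called regions also clustered on a finer scale. Pairs of adjacent well-covered regions up to 50 kb apart were compared. Of the regions adjacent to a higher region 23.8% were higher, against 8.16% over all such pairs. Of those adjacent to a lower region 21.0% were lower, against 6.36%. These shares were not separated from the shifts of whole chromosomes. Of 1469 windows of 1 Mb with at least 10 well-covered regions, 35 had a median log2 ratio over 0.5 and 27 one below −0.5. The highest window, on chromosome 2 with the basement membrane collagen genes COL4A3 and COL4A4, had a median of 0.96 and 10 of 14 regions higher. A window on chromosome 14 with HSP90AA1, the HSP90 gene, and TRAF3 had a median of 0.64 and 17 of 34 regions higher. The lowest window, on chromosome 15 with SLCO3A1 and CHD2, had a median of −1.01 and 6 of 10 regions lower. On chromosome 20 a window with SYNDIG1 had a median of −0.87 and 14 of 24 regions lower, and on chromosome 18 one with ZNF521 had −0.81 and 4 of 10 lower.

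Known ERα targets leaned slightly towards lower Y537S signal relative to the median region, with a median log2 ratio of −0.10 that was 0.05 when scaled by the lowest background. Of 45 listed target genes, 41 had a well-covered region in the gene or within 25 kb, 213 regions in all, of which 12 (5.63%) were higher and 22 (10.3%) lower, beside 7.86% and 6.89% over all regions. The balance of these calls depended on the scaling, with 17 higher and 12 lower when ratios were centred in 5 Mb windows and 20 higher and 13 lower when scaled by the lowest background. At PGR, the progesterone receptor gene, 2 of 4 regions were lower. The larger decrease had 26 fragments in Y537S cells and 91 in WT cells, with a ratio of 0.267 (0.166 to 0.417), and the strongest region had 192 in Y537S cells and 331 in WT cells, with a ratio of 0.543 (0.452 to 0.650). XBP1, a stress response transcription factor gene, had 2 of 3 regions lower, one with 29 fragments in Y537S cells and 100 in WT cells. GREB1, an ERα cofactor gene, had 2 of 9 lower, one with 87 in Y537S cells and 148 in WT cells, while its strongest region, with 258 in Y537S cells and 289 in WT cells, was not called. In the kinase gene SGK3 the single region had 56 in Y537S cells and 163 in WT cells, a ratio of 0.321 (0.233 to 0.438). TFF1, which encodes a secreted trefoil peptide, had 6 regions and none called, with a ratio of 0.665 (0.451 to 0.972) at the largest change. CCND1 went the other way at 1 of 6 regions, with 200 fragments in Y537S cells and 118 in WT cells and a ratio of 1.59 (1.26 to 2.01). MYC had 3 regions, none called.

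Genes of the luminal and epithelial lineage gave both directions. Of their 85 regions 12 (14.1%) were higher and 5 (5.88%) lower, beside 7.86% and 6.89% over all regions. Their median was −0.04. In 5 Mb windows 10 were higher and 7 lower, and 13 and 3 when scaled by the lowest background. FOXA1, the pioneer factor gene, had 1 of 6 regions higher, with 118 fragments in Y537S cells and 61 in WT cells. GATA3 had 2 of 4 higher and 1 lower, and the lower region had 47 in Y537S cells and 121 in WT cells, a ratio of 0.363 (0.254 to 0.513). At the ESR1 locus 1 of 6 regions was lower, with 64 in Y537S cells and 110 in WT cells. The epithelial factor genes GRHL2 and ELF3 each had a lower region, with 46 and 34 fragments in Y537S cells, against 104 and 72 in WT cells. Of the 81 regions near androgen receptor target and apocrine genes, 13 (16.05%) were higher and 4 (4.94%) lower, beside 7.86% and 6.89% over all regions. Their median was 0.06. These counts were 14 higher and 5 lower within 5 Mb windows, and 16 and 0 when scaled by the lowest background. FASN, the fatty acid synthase gene, had 3 higher and 1 lower of 9. PIP, an apocrine marker gene, had 2 regions, neither called. SLC45A3 had 2 higher and 1 lower of 7.

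Signalling genes were uneven. Of 79 regions near ERBB, FGF receptor and PI3K genes 9 (11.4%) were higher and 4 (5.06%) lower, beside 7.86% and 6.89% over all regions. Within 5 Mb windows 6 were higher and 5 lower, and the median log2 ratio was 0.07 in place of 0.20. AKT1, the PI3K pathway kinase gene, held 6 of the 9 higher regions. One had 100 fragments in Y537S cells and 37 in WT cells, with a ratio of 2.53 (1.72 to 3.79), and another, in the AKT1 promoter window, had 128 in Y537S cells and 52 in WT cells. AKT2 had 1 of 4 higher, with 94 in Y537S cells and 41 in WT cells. Near plexin and semaphorin genes 14 of 146 regions (9.59%) were higher and 5 (3.42%) lower, and 13 and 7 within 5 Mb windows. PLXNB2 had 4 of 13 higher, and at its strongest region the 327 fragments in Y537S cells and 297 in WT cells were not called apart. PLXNA2 had 1 higher and 1 lower of 21, and PLXND1 1 higher of 7. Chaperones that hold steroid receptors before hormone binds, with heat shock genes, had 8 of 42 regions higher (19.05%) and 3 lower (7.14%), beside 7.86% and 6.89% over all regions. Within 5 Mb windows 3 were higher and 1 lower, and the median log2 ratio was −0.06 in place of 0.03. All 3 regions of HSP90AA1 were higher, the largest change with 143 in Y537S cells and 50 in WT cells and a ratio of 2.68 (1.93 to 3.77). Centred in its 5 Mb window that ratio was 2.11, and that of the strongest HSP90AA1 region was 1.38, under the 1.5-fold rule. STUB1, a chaperone-linked ubiquitin ligase gene, had 3 of 7 higher. The single region counted for HSPD1, which was higher, lay 15536 bp from that gene.

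Coregulator genes had 9 of 86 regions higher (10.5%) and 5 lower (5.81%), beside 7.86% and 6.89% over all regions. These counts were 4 higher and 4 lower within 5 Mb windows, and 14 higher and 1 lower when scaled by the lowest background. KAT2B, an acetyltransferase gene, had 2 of 4 higher, one with 156 fragments in Y537S cells and 52 in WT cells, and SMARCA4, the chromatin remodeller gene, had 2 of 7 higher. Cell cycle genes had 3 of 43 higher (6.98%) and 1 lower (2.33%). The lower one is the NECAB3 promoter region with the pair of response elements, counted here because it lies 820 bp from E2F1. E2F2 and CCNE2 had 1 higher region each, with 142 and 76 fragments in Y537S cells, against 62 and 27 in WT cells. Basal and mesenchymal genes had 1 of 56 higher (1.79%) and 2 lower (3.57%), the lower ones 17095 bp from KRT5 and inside MYLK.

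Lists of genes of other tissues gave the following counts, beside 7.86% higher and 6.89% lower over all regions. Hepatocyte genes had 1 of 27 regions higher (3.70%) and 6 lower (22.2%) and the lowest median of the 13 lists, −0.44, which came to −0.15 within 100 kb of the genes. Of those 6 regions, 4 lay at SERPINA1, the alpha-1 antitrypsin gene, where the strongest had 234 fragments in Y537S cells and 336 in WT cells, a ratio of 0.652 (0.549 to 0.772). The others lay near APOA1 and AMBP. Scaled by the lowest background, the hepatocyte list had 1 higher and 2 lower regions. Neuronal genes had 6 of 49 higher (12.2%) and 8 lower (16.3%). RBFOX3, a neuronal splicing factor gene, held 7 of the 8 lower regions, one with 93 in Y537S cells and 211 in WT cells and a ratio of 0.412 (0.320 to 0.529). GRIN1, a glutamate receptor gene, had 2 of 5 higher, one with 159 in Y537S cells and 34 in WT cells. Immune genes had 3 of 31 higher (9.68%), all at SPI1, and 1 lower (3.23%), at ITGAM. Housekeeping genes had 2 of 27 higher (7.41%) and 0 lower, and 0 in either direction within 5 Mb windows. The 2 include a region 20267 bp from RPLP0, with a ratio of 1.69 (1.25 to 2.29). The region inside RPLP0 had fewer fragments, 70 in Y537S cells and 33 in WT cells. Its ratio was 1.98 (1.29 to 3.10), and it was not called. When the libraries were scaled by their lowest background, the median of each of the 13 lists was 0.14 higher.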

How the data were processed

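Each of the 6 libraries is 1 sample with its own deposited peak list, and samples were grouped by their titles. The tools listed in the submitters' processing notes are MACS2, Bowtie2, Picard, SAMtools and bedtools, with the build hg38. Their roles and versions, the read filters and the control library were not given in the sources used. For each peak the authors deposited a fold over local background (with a pseudocount of 1) and −log10 p- and −log10 q-values, in the layout of MACS2. These were not changed. Both values follow from the fragments at the summit and the local background under a Poisson test. Solved together they gave a whole number of fragments for 100% of peaks on chromosomes 1 to 22, with the deposited −log10 p matched to within 0.01%. The procedure was tested on simulated peaks and libraries.

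Regions were merged, compared and called as the report states (Python 3.11.15, pandas 2.3.3, SciPy 1.17.1). Wilson intervals belong to shares and exact intervals to ratios. Because 1 library stands for each group, no test was made. A genome sequence was not used here, so the planned 200-base summit windows were replaced by RefSeq promoter windows (33725 windows, 26246 genes, GRCh38.p14), and gene starts come from the same table. Exons and introns were not annotated; a gene's position is its RefSeq span. Of 317 genes in 13 lists, 308 matched a gene on chromosomes 1 to 22, and the 9 others, the androgen receptor gene among them, lie elsewhere and were not analysed here. A gene can stand in more than 1 list, and 1 region can count for more than 1 gene. A region counted for a listed gene can lie up to 25 kb from it. Peak positions give no expression, so the cell line label was not checked against markers.

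Named regions are the 12 largest changes in each direction near protein-coding genes (1 per gene), the 5 strongest regions of each list, the 5 strongest found in a single list, up to 3 genes per gene list with the largest change, and a fixed set of ERα-related genes. A few genes that these rules pick are not reported here. The promoters shown were picked by size or by their element, and the 1 Mb windows named were chosen after their values were seen. The comparison, gene lists and rules were chosen with earlier results of these data known. Alternatives covered scaling, minimum fragments, fold, overlap, peak threshold, distance and window, and their effect is given at the end.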

Additional observations from a re-analysis of the deposited data

Results flagged for a closer look

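At 3 regions the call with E2 was opposite to the call without E2. Each value is 1 library, and the difference between treatments was not tested. In LY9, a lymphocyte surface receptor gene (chr1:160823394-160823909), the log2 ratio was −0.81 with E2, from 58 fragments in Y537S cells and 95 in WT cells, and 1.09 without E2, from 91 in Y537S cells and 44 in WT cells. Near ENOX1 (chr13:43196142-43196609) it was −0.98 with E2, from 45 in Y537S cells and 83 in WT cells, and 1.32 without E2, from 157 in Y537S cells and 65 in WT cells. The region 43121 bp from CHMP4B (chr20:33897306-33897863) had 1.00 with E2, from 79 in Y537S cells and 37 in WT cells, and −1.19 without E2, from 66 in Y537S cells and 156 in WT cells.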

How the results depend on the processing

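With 1 library per group, no alternative can stand for replicate error. Scaling by the lowest background gave 4712 higher and 1549 lower regions, so 75.3% of called regions were higher, against 53.3% as reported and 52.6% within 5 Mb windows. It gave medians of −0.20 for chromosome 6 and 0.47 for chromosome 19, 0.29 within 1 kb of a start, 0.047 over 100 kb from one and 0.047 for ERα targets, both of the other sign than reported. A minimum mean of 20 fragments gave 4533 higher and 4085 lower regions, a minimum of 100 gave 1263 and 860, and a 2-fold rule gave 1373 and 1239; fewer or more regions enter by construction. Of the 50000 strongest regions, 479 Y537S and 624 WT regions were missing from the other list, and 8 and 4 when the 10000 were ranked by fold. Within 5 kb of a start lay 25.8% of higher, 12.4% of lower and 17.5% of other regions. The other alternatives to these results, 23 values in all, stayed within 1.5 times for counts, within 0.1 for log2 medians and inside the Wilson interval for shares. The count in both lists was not recomputed for the stricter overlap. Each named region of the 2 sets of 12 kept its direction under both other scalings. These regions were chosen for large ratios, and scaling by the lowest background shifts every log2 ratio by the same 0.14. Their direction was therefore all but fixed in advance. The distance medians under other scalings or without chromosomes 6 and 19, and the elements within 50 bases of a summit, were chosen after seeing the data. The motif search in 200-base and 100-base summit windows was not run. No paired analysis was possible because each group holds 1 library. Depth limits weak regions most, since regions in a single list held a median of 13 fragments.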
